A study of Saccharomyces cerevisiae with 30 samples.

Results

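Liriodenine methiodide (LMT), the N-methylated salt of the plant alkaloid liriodenine, was tested for its effect on the transcripts of growing yeast after about 4 h. The experiment comprised 6 of the 30 arrays of the study, chosen by their titles: 3 from cultures given LMT at 2.6 µM in DMSO and 3 from cultures given DMSO alone at 0.25%. That LMT dose was its IC50, chosen for how strongly it slows growth. All 6 cultures were of Saccharomyces cerevisiae strain S288C, a widely used haploid of alpha mating type, grown at 30 °C in synthetic dextrose medium without amino acids, buffered with MOPS. They were treated at an optical density (OD600) of 0.2 and harvested when it had reached 0.5. Each culture was a biological replicate, hybridised to an array of its own, so n = 3 per group throughout. The other groups used here for comparison were E9591 (0.053 µM, 4 h), the metal chelators BIPR (65.9 µM) and PHEN (6.2 µM) at 4 h, and LMT after about 15 h. Each of these experiments had DMSO cultures of its own, and BIPR and PHEN shared theirs. The study used the chelators as references for iron deficiency.

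Yeast short of iron switches on genes for iron uptake through the transcription factors Aft1 and Aft2, which respond to iron-sulfur clusters made in mitochondria, and the same shortage lowers transcripts of iron-using enzymes. Growing cells pass the G1/S transition when the SBF and MBF factors switch on cyclins and replication genes. Cells that slow their growth commonly raise stress protectants, storage genes and genes for carbon sources other than glucose. Mating type is also read in transcripts: alpha cells make the pheromones MF(ALPHA)1 and MF(ALPHA)2, and a-cell genes such as STE2 and MFA1 are repressed in them.

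Signal was high on all 6 arrays. Between 98.2% and 99.4% of the 5429 genes tested lay above the floor, which was the 95th percentile of the array's other-species probe sets (an intensity of 12.3 to 17.5). The arrays of the E9591 experiment at 4 h, used for comparison, had higher floors of 27.5 to 34.5. Comparisons with those arrays are therefore limited for dim genes. Between any 2 LMT cultures the log2 values differed by an SD of 0.19 to 0.21 over genes, and between any 2 DMSO cultures by 0.22 to 0.26. The defining alpha-cell gene MF(ALPHA)1 was bright in all cultures, at 11316, 11594 and 11876 in LMT cultures, against 15686, 15238 and 13823 in DMSO cultures. The a-cell genes were not at 0, and they are described with the mating genes. The DMSO group of this experiment stood apart from the DMSO groups of the other 4 h experiments. It differed from their mean by an SD of 0.54 over genes, with 298 genes apart by over 2-fold. The same figures were 0.32 and 68 genes for the DMSO group of E9591, and 0.36 and 98 genes for that of the chelators. Results are therefore given against the experiment's own DMSO arrays and, where that matters, against the DMSO arrays of the other 4 h experiments.

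LMT cultures differed from DMSO cultures in most genes measured. Changes are on the log2 scale as the LMT minus the DMSO mean, ± standard error, and calls required an adjusted p under 0.05 (limma, Benjamini-Hochberg over all 5429 genes). By this rule 2192 genes were higher in LMT cultures (40.4% of those tested) and 1366 were lower (25.2%). Large changes were mostly rises, with 478 genes higher and 117 lower by at least 2-fold, and 107 higher and 9 lower by at least 4-fold. Against the other 4 h DMSO arrays 2572 genes were higher (47.4%) and 1763 lower (32.5%), and 439 of the 478 and 116 of the 117 were called the same way. The median change over all genes was 0.10, and it became -0.03 under quantile normalization and -0.11 when arrays were centred on their medians. The split of calls moved with it, to 1594 higher and 1902 lower under quantile normalization and 1518 higher and 2168 lower with centring. Small changes thus have no settled direction, and 532 of the 595 changes of at least 2-fold were called the same way under both scalings. Directions of called genes and signs of list medians given below held under both scalings unless stated, and the 3 LMT arrays of a gene given by its arrays lay clear of its 3 DMSO arrays unless stated. Such separation was common, holding for 3962 of the 5429 genes tested.

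**Figure D1:**
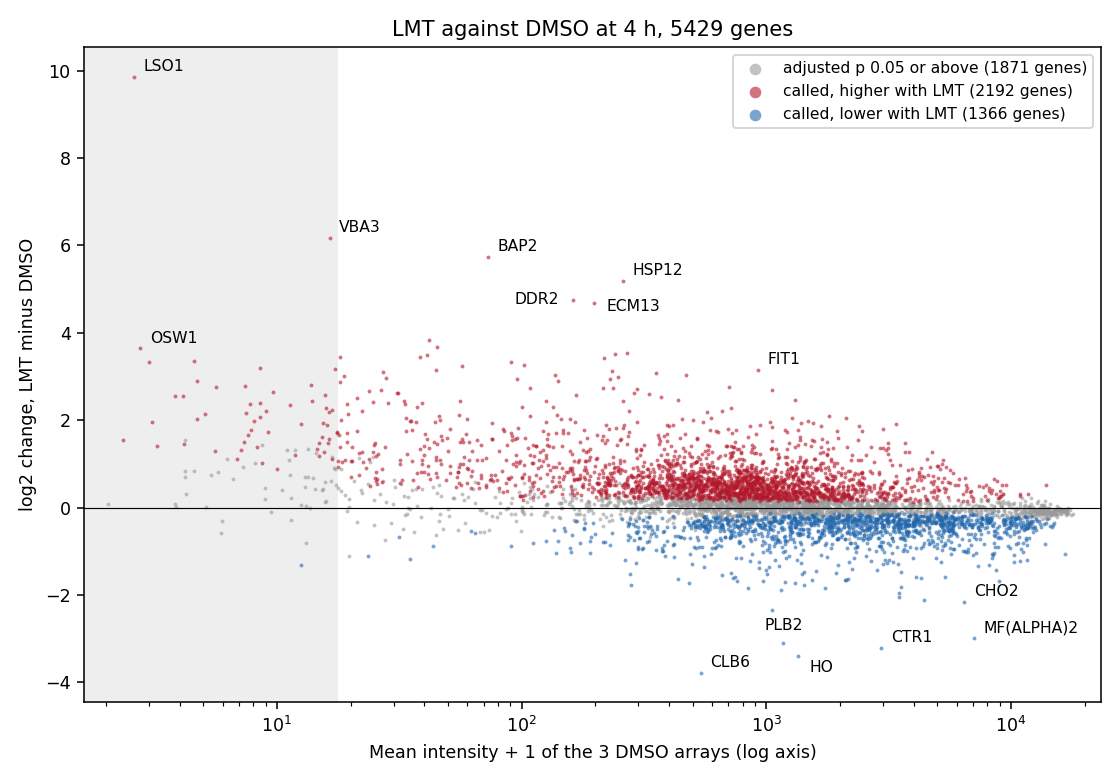
Each point is 1 of the 5429 genes tested, with the mean intensity of its 3 DMSO arrays (plus 1, log axis) on the horizontal axis and its log2 change, LMT minus DMSO at 4 h, on the vertical axis. Red points were called higher (2192) and blue points called lower (1366), and the grey band lies below the highest floor of the 6 arrays (17.5). The upper tail reaches further than the lower one: BAP2 changed by 5.73 and CLB6 by -3.78.

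The genes with the largest measured rises belonged to several pathways. BAP2, a permease for branched-chain amino acids, had intensities of 3337, 4429 and 3880 in LMT cultures, against 72, 81 and 62.9 in DMSO cultures. No LMT culture came near a DMSO culture, and the change was 5.73 ± 0.15 (adjusted p = 3.97e-19). HSP12, a small membrane-protecting stress protein, stood at 8280, 8873 and 9910 in LMT cultures, against 369, 225 and 183 in DMSO cultures. The change was 5.18 ± 0.22 (adjusted p = 2.04e-15), and it was 5.22 against the other DMSO arrays. DDR2, another stress-induced gene, gave 4671, 4263 and 4122 in LMT cultures, against 150.0, 169.7 and 163 in DMSO cultures, a change of 4.75 ± 0.28. ECM13 changed by 4.68 ± 0.16, with 4871, 4378 and 6034 in LMT cultures and 218, 199.6 and 175 in DMSO cultures. LSO1, a small gene induced when iron is scarce, was the extreme case, at 2198, 2357 and 2344 in LMT cultures and below the floor in all 3 DMSO cultures, so that it was at least 153-fold higher. VBA3 rose by 6.16 from a DMSO level near the floor, but its probe set is of a type that related genes can share. Further genes among the 25 largest rises were SPG4 (3.68), needed for survival in stationary phase, NQM1 (3.52), a transaldolase, FRM2 (3.42), a nitroreductase-like protein, NDE2 (3.16), an external NADH dehydrogenase of mitochondria, and PAU5 (3.32), a seripauperin whose probe set is also of the shared type. BOP2 (3.53), ANS1 (3.44), SRL4 (3.45), YDL199C (3.25), SNO4 (3.16, again a shared type) and YNR068C (3.13) were also in this set. LDS1, SMA1 and HMS1 were in it too, but like LSO1 they lay below the floor in all 3 DMSO cultures, so they are given as at least 2.64-fold, 4.62-fold and 1.91-fold higher. NDE2 and ANS1 were near the floor in DMSO cultures, each with 1 DMSO array below it, so the sizes of their changes are less sure.

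The largest falls included many genes used by dividing cells. CLB6, a cyclin of S phase, had 56.2, 30.7 and 32.6 in LMT cultures, against 489, 569 and 559 in DMSO cultures. The highest LMT culture was far below the lowest DMSO culture, and the change was -3.78 ± 0.19 (adjusted p = 3.46e-14). HO, the endonuclease of mating-type switching, which is transcribed in late G1, had 128, 113 and 137 in LMT cultures, against 1298, 1376 and 1347 in DMSO cultures, a change of -3.40 ± 0.09 (adjusted p = 3.97e-19). PLB2, a phospholipase B, fell by 3.10, with 152, 127 and 129 in LMT cultures and 1112, 1157 and 1252 in DMSO cultures. CTR1, the high-affinity copper transporter, had 333, 407 and 230.1 in LMT cultures, against 2788, 2966 and 3055 in DMSO cultures. Its change was -3.22 ± 0.14 but only -0.93 against the other 4 h DMSO arrays, its DMSO level here being higher than theirs by 2.29. Other falls among the 25 largest were those of HHO1 (-2.11), the linker histone, the cell wall genes GAS3 (-2.05), CWP1 (-1.73), TIR1 (-1.66) and PST1 (-1.66), the stress sensor WSC4 (-1.78), and ACM1 (-1.84), an inhibitor of the anaphase-promoting complex. SFG1 (-1.84), YHP1 (-1.67), a homeodomain repressor of the cell cycle, SCM4 (-1.88), SEO1 (-1.74) and USB1 (-1.67) completed them beside genes described further on.

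**Figure D2:**
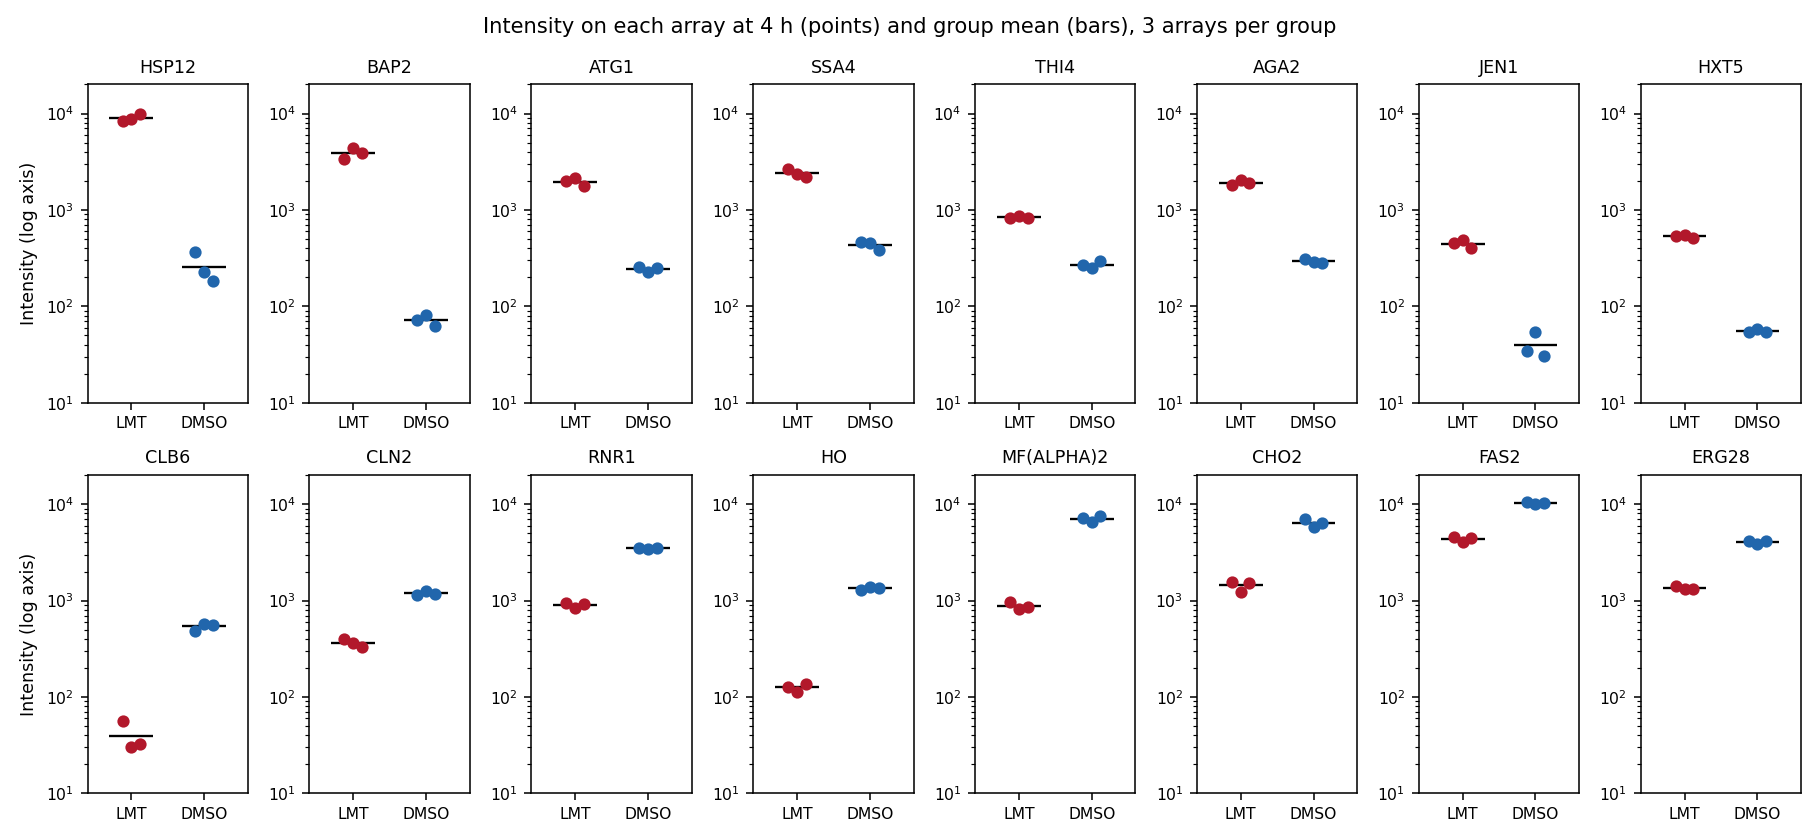
Intensity of 16 genes on each of the 6 arrays, on a log axis, with LMT cultures left of DMSO cultures in every panel and the short bar at the group mean. The 3 LMT arrays of every gene shown lie clear of its 3 DMSO arrays, above them for HSP12, BAP2, ATG1, SSA4, THI4, AGA2, JEN1 and HXT5 and below them for CLB6, CLN2, RNR1, HO, MF(ALPHA)2, CHO2, FAS2 and ERG28. Among all 5429 genes tested, 3962 had groups that did not overlap.

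Stress genes responded unevenly. Of 30 genes of the general stress response, which the factors Msn2 and Msn4 control, 16 were higher and 4 were lower in LMT cultures, with a median of 0.69 against 0.10 over all genes. Against the other 4 h DMSO arrays only 10 were higher and 12 were lower, with a median of 0.03, so the count depended on which DMSO arrays were used. Beside HSP12 and DDR2, GRE1, a hydrophilin of dry or salty conditions, gave 189.7, 185 and 190.4 in LMT cultures, against 31.9, 31.4 and 26.2 in DMSO cultures, a change of 2.62 ± 0.20. TMA10 changed by 2.09 ± 0.20, with 7504, 7456 and 7961 in LMT cultures and 1718, 1638 and 2065 in DMSO cultures. UBI4, the stress-induced polyubiquitin, rose by 1.48 ± 0.13 and HSP26, a small chaperone, by 1.15 ± 0.28, though HSP26 was not called against the other DMSO arrays (0.50, adjusted p = 0.0611). CTT1, the cytosolic catalase and a classic gene of this response, had 96, 99.5 and 95 in LMT cultures, against 111, 98 and 115 in DMSO cultures. Its groups overlapped, and its change of -0.15 was not called (adjusted p = 0.299). GRE3 (-0.87) and HSP30 (-0.87) were lower. Of 14 genes of stationary phase, 10 were higher and 1 was lower (median 1.17, and 1.06 against the other DMSO arrays), among them SNO1 (2.54) and SNZ1 (1.91), which make vitamin B6. Storage carbohydrate genes depended on the controls. Of 21 for trehalose and glycogen, 7 were higher, 4 lower and 10 not called (median -0.02). Against the other DMSO arrays 1 was higher and 15 lower (median -1.06). Glycogen synthase GSY1 changed by -1.33 ± 0.26. Of 27 antioxidant genes, 5 were higher and 13 lower (median -0.15).

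Heat shock genes were a clearer group. Of 22 chaperone genes, 15 were higher, 0 were lower and 7 were not called, with a median of 0.70. Against the other 4 h DMSO arrays 13 were higher and 5 were lower (median 0.40). SSA4, the stress-induced Hsp70, had 2638, 2349 and 2180 in LMT cultures, against 467, 452 and 384 in DMSO cultures. The LMT cultures lay several-fold above the DMSO cultures, with a change of 2.46 ± 0.13 (adjusted p = 4.46e-14). HSP82, the inducible Hsp90, had 6406, 5908 and 5759 in LMT cultures, against 1842, 1686 and 1467 in DMSO cultures, a change of 1.86 ± 0.14. BTN2, which gathers misfolded proteins, changed by 2.45 ± 0.25, with 7073, 6553 and 7622 in LMT cultures and 1562, 1309 and 1057 in DMSO cultures. The mitochondrial chaperones HSP78 (1.95) and MDJ1 (1.21), the disaggregase HSP104 (0.86) and the heat shock factor HSF1 (0.61) were higher too, and HSP78 changed by 0.77 against the other DMSO arrays. The constitutive relatives gave other values: HSC82, the second Hsp90, changed by -0.07 ± 0.12 (adjusted p = 0.631) and SSA2 by 0.14 ± 0.15 (adjusted p = 0.436). In the endoplasmic reticulum, ERO1, which drives disulfide formation, stood at 8024, 8221 and 7940 in LMT cultures, against 2984, 3384 and 3032 in DMSO cultures. Its change was 1.37 ± 0.06 (adjusted p = 7.77e-16), the largest of 12 genes of the unfolded protein response, of which 7 were higher and 1 was lower (median 0.22), and 3 were higher and 1 lower with centring (median 0.02).

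Genes for carbon sources other than glucose were mostly higher, in a medium that held glucose. Of 14 genes of gluconeogenesis and the glyoxylate cycle, 13 were higher and 0 were lower, 11 of them by at least 2-fold (median 1.71, and 1.46 against the other DMSO arrays). JEN1, the lactate and pyruvate transporter, had 452, 484 and 404 in LMT cultures, against 34.8, 54.6 and 30.9 in DMSO cultures, a change of 3.48 ± 0.23. ADH2, the alcohol dehydrogenase that uses ethanol, gave 1424, 1413 and 1397 in LMT cultures, against 179.9, 221 and 239 in DMSO cultures, a change of 2.73 ± 0.12. PCK1, the first enzyme of gluconeogenesis, had 809, 891 and 852 in LMT cultures and 239, 249 and 237 in DMSO cultures, a change of 1.81 ± 0.12, and MLS1 (2.80), FBP1 (1.73) and ICL1 (1.55) rose with it. ACS1, an acetyl-CoA synthetase, did not pass the test (0.08, adjusted p = 0.444). CRC1, the mitochondrial carnitine carrier, was among the largest rises of all, with 591, 585 and 584 in LMT cultures, against 40.0, 47.5 and 34.5 in DMSO cultures and a change of 3.83 ± 0.16. The carnitine acetyltransferases YAT1 (2.04) and YAT2 (1.75) and the mitochondrial citrate synthase CIT3 (2.03) also rose, and of 18 genes of the carnitine shuttle and beta-oxidation 11 were higher and 1 lower (median 0.75). That median shrank to 0.10 under quantile normalization, with 7 genes higher and 4 lower.

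Hexose transporter genes changed in both directions. HXT5, a hexose transporter of slowly growing cells, gave 541, 555 and 516 in LMT cultures, against 54.6, 58.7 and 54.4 in DMSO cultures, a change of 3.24 ± 0.14 (adjusted p = 3.21e-15). HXT1, a low-affinity transporter, had 8991, 11169 and 8888 in LMT cultures, against 5400, 4815 and 4710 in DMSO cultures, a change of 0.96 ± 0.09. HXT4 went the other way, with 3387, 2923 and 2585 in LMT cultures, against 5286, 5519 and 6042 in DMSO cultures and a change of -0.93 ± 0.15. HXT3 was not called (0.04, adjusted p = 0.797). Of 22 genes of this group, 13 were higher and 1 was lower (median 0.82), with 12 higher and 7 lower against the other DMSO arrays. MIG1, a repressor in glucose repression, had 1853, 1946 and 1875 in LMT cultures and 674, 768 and 749 in DMSO cultures, a change of 1.37 ± 0.09, and MTH1, which restrains hexose transporter genes, rose by 1.34. Glycolysis itself showed few calls, with 3 of 19 genes higher and 5 lower (median -0.07, and 0.01 under quantile normalization), but against the other DMSO arrays 2 were higher and 16 lower (median -0.56). In the TCA cycle, IDH1 (1.10) rose while KGD1 (-0.75), SDH1 (-0.77) and SDH2 (-0.98) fell, and 4 of its 15 genes were higher and 9 lower (median -0.31).

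Transcription factors and other regulators of metals, stress and carbon were mostly higher: 21 of 22 were higher and 0 were lower (median 0.72). ADR1, which activates genes for ethanol and fatty acid use, had 235, 229 and 188 in LMT cultures, against 26.8, 28.2 and 25.8 in DMSO cultures, a change of 2.96 ± 0.24 (1.75 against the other DMSO arrays). AFT2 gave 1180, 1446 and 1192 in LMT cultures, against 495, 585 and 548 in DMSO cultures, a change of 1.22 ± 0.10, and its paralog AFT1 rose by 0.80. CAT8, an activator of gluconeogenesis, rose by 1.67 and HAP4, the activating subunit for respiratory genes, by 1.11. RPN4, which controls proteasome genes, rose by 1.51, whereas of 34 proteasome genes 4 were higher and 14 lower (median -0.05, and 0.0011 under quantile normalization). Several regulators depended on which DMSO arrays were used, and against the other 4 h groups 15 were higher and 4 lower. XBP1 changed by 1.66 here and 0.02 there (adjusted p = 0.94), and MSN4 by 1.07 here and -0.27 there. GCN4, the regulator of amino acid synthesis, was not called (-0.05).

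Iron genes were among those that differed between DMSO groups: over 29 genes of the Aft1/Aft2 iron regulon, this experiment's DMSO arrays were higher than the other 4 h DMSO arrays by a median of 0.34. With LMT, 22 of the 29 were higher and 2 were lower (median 1.21), and 26 were higher and 1 lower against the other 4 h DMSO arrays (median 1.42). FIT1, a cell wall protein that holds iron carriers, had 7838, 8330 and 8221 in LMT cultures, against 851, 1018 and 901 in DMSO cultures. Its change was 3.14 ± 0.07, and 5.80 against the other DMSO arrays, whose level was lower by 2.65. FIT2, a sister protein, was near the top of the scale on all 6 arrays, at 15431, 14657 and 16051 in LMT cultures, against 15396, 14684 and 13346 in DMSO cultures. The groups overlapped and its change was not called (0.09, adjusted p = 0.32). FRE1, a surface iron and copper reductase, changed by -0.28 ± 0.09 against its own DMSO arrays and by 1.49 against the others, so its direction was not settled. FMP23 (2.77), ARN1 (1.87), a siderophore transporter, and FRE2 (1.24), another reductase, were higher.

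Genes of cytosolic cluster assembly were mostly higher and those of the respiratory chain mostly lower. Of 8 genes of cytosolic iron-sulfur assembly, 6 were higher and 0 were lower (median 0.81). CIA2, which delivers clusters to target proteins, had 3936, 3956 and 4240 in LMT cultures, against 1075, 989 and 1042 in DMSO cultures, a change of 1.96 ± 0.07, and NAR1 (1.33), DRE2 (1.17) and CFD1 (0.92) rose with it. GRX4, a glutaredoxin that passes the cluster signal to Aft1, gave 2603, 2414 and 2714 in LMT cultures, against 850.4, 851 and 825 in DMSO cultures, a change of 1.61 ± 0.08. Its relative GRX3 went the other way, at -0.45, and -0.51 against the other DMSO arrays. Of 17 mitochondrial assembly genes 9 were higher and 2 lower (median 0.29), led by the scaffold ISU1 (1.28) and ISA1 (1.25). With centring 8 were higher and 8 lower (median 0.08), and under quantile normalization 8 were higher and 5 lower (median 0.06). Of 23 respiratory chain genes, 1 was higher and 19 were lower (median -0.49), with falls in CYC1 (-1.66), COX4 (-1.42) and CYT1 (-1.38) and a rise in COX9 (0.55). HEM15, ferrochelatase, changed by -1.43 ± 0.09, and BIO2, the cluster-bearing biotin synthase, by -1.24 ± 0.11. Of 20 iron-sulfur enzymes, 4 were higher and 9 were lower (median -0.14). While BIO2 fell, the biotin transporter VHT1 (1.33) and BIO5 (1.65), which takes up a precursor, rose.

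Some autophagy genes rose strongly. ATG1, the kinase that starts autophagy, had 1985, 2140 and 1776 in LMT cultures, against 257, 229 and 251 in DMSO cultures, a change of 2.99 ± 0.12 (adjusted p = 6.43e-16). ATG39, a receptor for the nucleus and endoplasmic reticulum, gave 678, 704 and 596 in LMT cultures, against 146, 121 and 133 in DMSO cultures, a change of 2.30 ± 0.14. ATG32 (1.44), the mitophagy receptor, ATG36 (1.09), the peroxisome receptor, and ATG31 (1.29) were also higher by over 2-fold. ATG8, the membrane-anchored tag of autophagosomes, was not called (0.18, adjusted p = 0.135), nor was ATG9 (-0.03). Of 34 genes 19 were higher and 0 were lower (median 0.27), whereas under quantile normalization 11 were higher and 10 lower (median 0.03), so beyond the leading genes the list had no clear direction.

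Cell cycle genes were mostly lower in LMT cultures, apart from those of replication licensing and daughter cell separation. In bulk cultures, fewer cells in a stage and less RNA per cell cannot be told apart. Of 13 G1/S cyclins and regulators, 1 was higher and 9 were lower (median -0.46), and 1 was higher and 5 lower against the other DMSO arrays (median -0.15). CLN2, a G1 cyclin, had 398, 363 and 331 in LMT cultures, against 1151, 1260 and 1166 in DMSO cultures, a change of -1.71 ± 0.08 (adjusted p = 8.08e-15). CLN1, its paralog, gave 354, 360.4 and 392 in LMT cultures, against 894, 1034 and 1062 in DMSO cultures, a change of -1.43 ± 0.11. NRM1, a repressor of MBF targets after G1, changed by -1.55. CLB5, the partner of CLB6 in S phase, changed by -0.50 but by -0.07 against the other DMSO arrays (adjusted p = 0.326). CLN3 behaved likewise, at -0.45 and 0.07. MBP1, the DNA-binding part of MBF, was the one gene called higher (0.28), a call lost under both other scalings.

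Of 30 genes of DNA replication and cohesin, 0 were higher and 22 were lower (median -0.44), and 2 were higher and 25 lower against the other DMSO arrays. MCD1, the cohesin ring subunit cut at anaphase, had 253, 182 and 185 in LMT cultures, against 983, 1077 and 1091 in DMSO cultures, a change of -2.35 ± 0.10. POL30, the sliding clamp PCNA, gave 1114, 873 and 1060 in LMT cultures, against 3515, 3575 and 3601 in DMSO cultures, a change of -1.82 ± 0.08. CDC21, thymidylate synthase, changed by -1.76 ± 0.09, RFA1 by -1.35 and CDC45 by -1.0. RNR1, the large subunit of ribonucleotide reductase, had 952, 836 and 911 in LMT cultures, against 3515, 3399 and 3502 in DMSO cultures, a change of -1.95 ± 0.11 (adjusted p = 1.20e-13), and RNR2, the small subunit, changed by -1.23 ± 0.08. Damage-inducible genes gave a mixed picture. RNR3 (-0.38) and the kinase DUN1 (-1.50) fell, HUG1 was not called (0.09), and the repair genes RAD16 (1.52), RAD54 (1.10) and DIN7 (1.35) rose. Among 9 histone genes 0 were higher and 4 were lower: HHO1 with 1129, 889 and 1060 in LMT cultures and 4421, 4271 and 4506 in DMSO cultures (change -2.11 ± 0.07), HTB2 (-0.84) and HTZ1 (-0.74) fell, while HTA1 was not called (0.11). Of 14 replication licensing genes, 5 were higher and 2 lower, with a median of 0.05 that was negative under both other scalings (-0.16 and -0.15).

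The mitotic wave was lower as well. Of 15 mitotic cyclins and G2/M genes, 1 was higher and 10 were lower (median -0.65, and -0.78 against the other DMSO arrays). SWI5, the factor that drives genes of the M/G1 boundary, had 252, 222 and 246 in LMT cultures, against 693, 700.0 and 803 in DMSO cultures, a change of -1.60 ± 0.09. CLB1, a mitotic cyclin, gave 663, 694 and 668 in LMT cultures, against 1717, 1969 and 2090 in DMSO cultures, a change of -1.51 ± 0.10, and CLB2, its partner, changed by -1.0 ± 0.16. CHS2, which builds the septum, changed by -1.37 and HOF1, of the bud neck ring, by -1.14. CDC20, the activator of the anaphase-promoting complex, was the exception, with 893, 872 and 851 in LMT cultures, against 554, 628 and 630.4 in DMSO cultures and a change of 0.53 ± 0.08. Genes of daughter cell separation split, with 6 of 12 higher and 6 lower (median -0.02, and 0.03 under quantile normalization), from 1.11 in DSE1 to -1.32 in PIR1. With centring 2 of them were higher and 6 lower (median -0.23).

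Mating-type genes split by the cell type they mark. All 4 alpha-cell genes were lower in LMT cultures, also against the other DMSO arrays. MF(ALPHA)2, the minor alpha-factor gene, had 964, 819.6 and 864 in LMT cultures, against 7136, 6503 and 7472 in DMSO cultures, a change of -2.99 ± 0.14 (adjusted p = 5.63e-15). SAG1, the alpha-agglutinin, gave 3074, 2781 and 2495 in LMT cultures, against 9279, 8765 and 8754 in DMSO cultures, a change of -1.69 ± 0.12. STE3, the receptor for a-factor, changed by -0.98 ± 0.09, and MF(ALPHA)1 by -0.36 ± 0.12. All 7 a-cell genes were higher, by at least 2-fold (median 1.68, and 2.40 against the other DMSO arrays), with 6 called under quantile normalization. AGA2, the binding subunit of a-agglutinin, had 1822, 2030 and 1908 in LMT cultures, against 311, 289.8 and 280.0 in DMSO cultures, a change of 2.70 ± 0.14. STE2, the receptor for alpha-factor, had 2209, 2034 and 2081 in LMT cultures and 767, 877 and 757 in DMSO cultures, a change of 1.40 ± 0.10. MFA1, an a-factor gene, had 2979, 2569 and 3177 in LMT cultures, against 872, 952 and 897 in DMSO cultures, a change of 1.68 ± 0.15, and MFA2 (2.58), the protease BAR1 (2.29) and the a-factor exporter STE6 (1.63) rose with it. Summed over their probe sets, the 7 a-cell genes came to 8629 to 9046 in LMT cultures and 2367 to 2468 in DMSO cultures, and the 4 alpha-cell genes to 18224 to 18871 in LMT cultures and 36573 to 38504 in DMSO cultures. None of these genes lay below the floor on all 3 arrays of a group, and which cells carried the a-cell transcripts was not tested. Among 10 genes of haploid cells, 1 was higher and 6 were lower, and 3 were higher and 4 lower against the other DMSO arrays: STE5 (1.04), the scaffold of the pheromone pathway, rose, and STE4 (-0.64), FAR1 (-0.63) and RME1 (-0.62) fell with HO. Of 12 pheromone-induced genes 6 were higher and 2 lower (median 0.16, and negative under both other scalings), from 1.02 in PRM4 to -1.53 in FIG1.

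**Figure D3:**
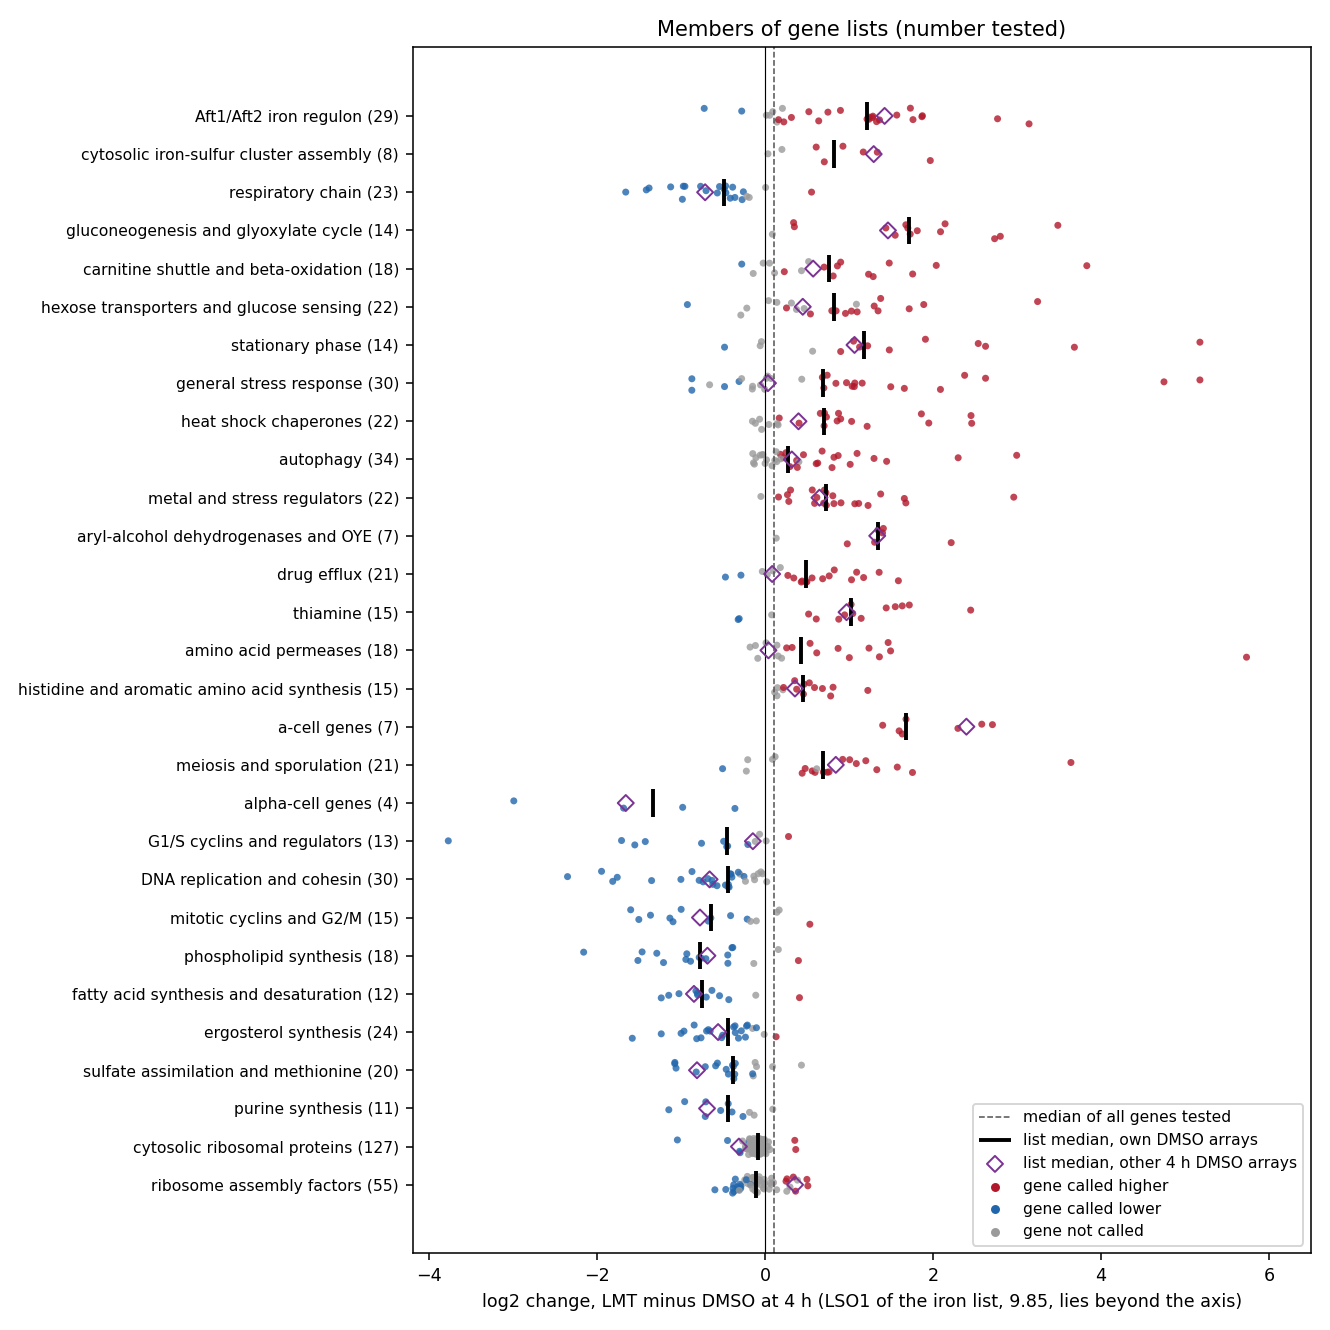
Each row is 1 of 29 gene lists and each point is 1 gene, with its log2 change, LMT minus DMSO at 4 h, on the horizontal axis; red points were called higher, blue points called lower and grey points not called. The black bar is the list's median, the purple diamond its median against the other 4 h DMSO arrays, and the dashed line the median of all genes (0.10). The a-cell, gluconeogenesis, iron regulon, stationary phase, thiamine, and aryl-alcohol dehydrogenase and OYE lists have medians above 1. The alpha-cell, phospholipid and fatty acid lists have medians of -1.34, -0.77 and -0.75.

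Lipid synthesis genes were mostly lower in several branches. Of 18 phospholipid synthesis genes, 1 was higher and 15 were lower, 5 of them by at least 2-fold (median -0.77, and -0.69 against the other DMSO arrays). CHO2, the first methyltransferase on the way to phosphatidylcholine, had 1558, 1238 and 1506 in LMT cultures, against 6987, 5838 and 6419 in DMSO cultures, a change of -2.16 ± 0.08 (adjusted p = 4.70e-16). OPI3, which completes that methylation, gave 5186, 4550 and 5306 in LMT cultures, against 12224, 11373 and 11194 in DMSO cultures, a change of -1.21 ± 0.13. PSD1, which makes phosphatidylethanolamine in mitochondria, changed by -1.47 ± 0.07, CDS1 by -1.29, CKI1, choline kinase, by -1.52 and CHO1, phosphatidylserine synthase, by -0.95. INO1, which makes inositol phosphate and is a standard reporter of this pathway, had 714, 695 and 676 in LMT cultures, against 951, 1078 and 1597 in DMSO cultures, a change of -0.76 ± 0.17. PCT1, of the choline branch, was the one gene higher (0.39), and its call was lost under both other scalings. INO2 (-0.40) and INO4 (-0.89), which activate the pathway, were lower, and their repressor OPI1 was not called (-0.14, adjusted p = 0.159).

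Fatty acid and sterol genes were mostly lower as well. Of 12 genes of fatty acid synthesis and desaturation, 1 was higher and 10 were lower (median -0.75). FAS2, a subunit of fatty acid synthase, had 4531, 4045 and 4467 in LMT cultures, against 10490, 9980 and 10284 in DMSO cultures, a change of -1.24 ± 0.10, and its partner FAS1 changed by -1.03 ± 0.13. ACC1, the acetyl-CoA carboxylase, changed by -0.83, the elongase ELO2 by -1.15 and the desaturase OLE1 by -0.81 ± 0.07, whereas SPT23, an activator of OLE1, rose by 0.41 but was not called against the other DMSO arrays (0.08, adjusted p = 0.279). Of 24 ergosterol genes, 1 was higher and 21 were lower (median -0.44). ERG28, which holds sterol enzymes together, gave 1431, 1328 and 1320 in LMT cultures, against 4191, 3894 and 4148 in DMSO cultures, a change of -1.58 ± 0.07. ERG24 (-1.24), ERG5 (-1.0), ERG26 (-0.97) and ERG6 (-0.85) were lower, and ERG11, the target of azole drugs, changed by -0.68 ± 0.09 with 7129, 6663 and 6341 in LMT cultures and 10913, 10985 and 10291 in DMSO cultures. ERG8 was the one gene higher, at 0.13, and it changed by -0.08 with centring, which was not called.

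Genes of sulfur and purine pathways were mostly lower, and those of several amino acid pathways mostly higher. Of 20 genes of sulfate assimilation and methionine, 0 were higher and 15 were lower (median -0.39). MET3, ATP sulfurylase, had 4753, 5246 and 4629 in LMT cultures, against 10448, 10838 and 9573 in DMSO cultures, a change of -1.08 ± 0.09. SUL1, a sulfate permease, changed by -1.08 ± 0.07 and SAM2, which makes S-adenosylmethionine, by -1.06 ± 0.13, with 8436, 7345 and 8104 in LMT cultures and 16885, 16810 and 16145 in DMSO cultures. Of 11 purine synthesis genes, 0 were higher and 8 were lower (median -0.44), among them ADE2, with 3899, 3805 and 3556 in LMT cultures, against 8376, 8511 and 8074 in DMSO cultures and a change of -1.15 ± 0.06. The histidine and aromatic pathways had 11 of 15 genes higher and 0 lower (median 0.45), led by TRP4 (1.22). Of 8 arginine genes 5 were higher and 0 lower, led by ORT1 (1.55), the ornithine carrier. Of 12 genes for branched-chain amino acids 7 were higher and 0 lower (median 0.24), but 3 were higher and 1 lower with centring (median 0.04). Against the other DMSO arrays 3 of them were higher and 2 lower (median -0.04). Of 7 lysine genes 2 were higher and 2 lower (median -0.06, and 0.04 under quantile normalization). Beside BAP2, the permeases ALP1 (1.49), PUT4 (1.46) and AGP1 (1.36) rose, and of 18 permeases 11 were higher and 0 lower (median 0.43). Against the other DMSO arrays 8 were higher and 5 lower (median 0.04), with PUT4 at 0.50 and AGP1 at 0.48. GAP1, the general permease, was not called (0.14), and it was lower against the other DMSO arrays (-1.90).

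Vitamin, reductase and transporter genes completed the higher groups. Of 15 thiamine genes, 12 were higher and 2 were lower (median 1.02). THI4, which makes the thiazole part, had 833, 866 and 827 in LMT cultures, against 268, 249 and 298 in DMSO cultures, a change of 1.63 ± 0.10, and THI73 (2.45), THI72 (1.72) and the regulator THI2 (1.44) rose too. Of 7 aryl-alcohol dehydrogenase and old yellow enzyme genes, 6 were higher and 0 lower (median 1.34). OYE3, a flavin reductase induced by electrophiles, had 95.4, 102 and 103 in LMT cultures, against 17, 26.7 and 19.8 in DMSO cultures, a change of 2.21 ± 0.22, while its relative OYE2 was not called (0.13). Of 21 drug efflux genes 15 were higher and 2 lower (median 0.48), but 9 were higher and 7 lower against the other DMSO arrays. PDR12, the weak acid exporter, gave 1074, 1084 and 1126 in LMT cultures, against 379.8, 366 and 348 in DMSO cultures, a change of 1.58 ± 0.08, and ATR1 (1.36) and PDR10 (1.17) rose. PDR5, the main multidrug pump, was lower (-0.29, and -1.16 against the other DMSO arrays). Cell wall genes split, with 7 of 23 higher and 11 lower: the integrity kinase SLT2 (0.81), its target factor RLM1 (0.90), GSC2 (1.09) and PRM5 (1.59) rose, and PIR1 (-1.32) fell beside GAS3 and CWP1.

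Markers of sporulating cells were measured as a check on the culture. Of 21 genes of meiosis and sporulation 15 were higher and 1 lower (median 0.69), but under quantile normalization 3 were higher and 4 lower (median 0.06). Their summed intensity was 3359 to 3537 in LMT cultures and 2434 to 2582 in DMSO cultures. IME2, a kinase of early meiosis, held under both scalings, with 299, 273 and 265 in LMT cultures, against 88.5, 94.7 and 96.2 in DMSO cultures and a change of 1.57 ± 0.09. OSW1, a spore wall gene, was dim, at 30.2, 34.4 and 35.3 in LMT cultures, and below the floor in all 3 DMSO cultures, so it was at least 2.27-fold higher. Its change against the other 4 h DMSO arrays was 0.84 (adjusted p = 0.0234), its DMSO value here minus theirs being -2.80. Ribosomal protein genes gave few calls: of 127 cytosolic ones 2 were higher and 5 lower, with a median of -0.09 that was 0.01 under quantile normalization. With centring 0 were higher and 27 lower (median -0.29), and against the other DMSO arrays 2 were higher and 89 lower (median -0.31). Of 55 ribosome assembly genes 6 were higher and 15 lower (median -0.11), and 1 was higher and 37 lower with centring (median -0.31). Against the other DMSO arrays 37 were higher and 7 lower (median 0.35), so their direction depended on the controls and their counts also on the scaling.

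The response to LMT was next set against that to E9591, the other compound that the study exposed cells to for both times, after the same 4 h. The doses differed, each being the compound's own IC50, and each effect was taken against its own DMSO arrays. With E9591 1736 genes were called higher and 614 lower, with 233 higher and 0 lower by at least 2-fold. LMT effects exceeded E9591 effects for 675 genes (12.4%) and fell below them for 734 (13.5%), with 72 and 83 of these apart by at least 2-fold. The median difference over all genes was 0.03. HSP12 rose by 5.18 with LMT and 2.38 with E9591, a difference of 2.80 ± 0.32 (adjusted p = 5.54e-07). DDR2 differed by 2.71 ± 0.40 and NCA3 by 2.43 ± 0.16, the second with changes of 2.74 and 0.30. CLB6 changed by -3.78 with LMT and -0.58 with E9591, a difference of -3.20 ± 0.27 (adjusted p = 6.81e-09). HO (-2.89 ± 0.13), MF(ALPHA)2 (-2.83 ± 0.19), PLB2 (-2.74 ± 0.15) and CTR1 (-3.0 ± 0.20) were the other largest differences on that side.

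By gene list, the differences from E9591 included genes of division, lipids and chaperones. The LMT effect was the lower one for 14 of 30 replication and cohesin genes, 10 of 15 mitotic genes, 6 of 13 G1/S genes, 11 of 18 phospholipid genes, 10 of 12 fatty acid genes, 11 of 24 ergosterol genes and 3 of 4 alpha-cell genes, and the higher one for 0 of each list. It was the higher one for 13 of 22 chaperone genes and the lower one for 0, with SSA4 at 2.46 with LMT and 0.57 with E9591. ERO1 changed by 1.37 with LMT and 0.17 with E9591 (difference 1.19 ± 0.08, adjusted p = 9.64e-11). In the a-cell list 0 of 7 genes were higher with LMT and 1 was lower, STE2, at 1.40 with LMT and 2.19 with E9591 (difference -0.79 ± 0.14, adjusted p = 0.000153). The STE2 level in LMT's own DMSO arrays was above that in the other 4 h DMSO arrays by 0.997. Against those other arrays STE2 changed by 2.39 with LMT, so its difference from E9591 depends on the controls. For AGA2 the changes were 2.70 and 2.94, a difference of -0.24 ± 0.20 that was not called (adjusted p = 0.421). Of 12 pheromone-induced genes the LMT effect was lower for 9 and higher for 0, FIG1 at -1.53 with LMT and 0.17 with E9591 among them. For the pheromone-induced list, too, LMT's DMSO arrays were higher than the other 4 h ones, by a median of 0.57. Its median was 0.95 with E9591, and with LMT 0.16 against its own DMSO arrays and 0.62 against the others. In the iron regulon 3 of 29 genes had the higher effect with LMT and 12 the lower one. For this list LMT's own DMSO arrays were higher than the other 4 h DMSO arrays by a median of 0.34. The list median was 1.14 with E9591, and with LMT 1.21 against its own DMSO arrays and 1.42 against the others. The iron counts thus depend on the controls.

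The chelators came next, with their effect taken as the mean of BIPR and PHEN. With them 1715 genes were called higher and 1201 lower. LMT effects were the higher ones for 1607 genes (29.6%) and the lower ones for 1153 (21.2%), by at least 2-fold for 343 and 177, with a median difference of 0.09. HSP12 rose by 5.18 with LMT and changed by 0.23 with the chelators, a difference of 4.94 ± 0.29 (adjusted p = 2.06e-12). ECM13 (4.88 ± 0.21) and CRC1 (4.40 ± 0.21) differed almost as much, with changes of -0.20 and -0.58 under the chelators. On the other side stood SET4 (-6.38 ± 0.63), HES1 (-5.37 ± 0.20), YMR317W (-5.06 ± 0.28), DAN1 (-5.05 ± 0.35) and PBI1 (-4.53 ± 0.14), all raised by the chelators, by 5.07, 4.76, 4.40, 5.66 and 4.94. SET4 was below the floor in the LMT cultures, so its difference carries that limit.

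Gene groups set LMT and the chelators apart in both directions. Of 23 respiratory chain genes, the LMT effect was the higher one, a smaller fall, for 16 and the lower one for 0, with CYC1 at -1.66 with LMT and -4.01 with the chelators. Of 20 iron-sulfur enzymes it was the higher one for 15 and the lower one for 1. Of 29 iron regulon genes it was the higher one for 4 and the lower one for 17. The iron list had a median of 1.35 with the chelators. With LMT its median was 1.21 against LMT's own DMSO arrays and 1.42 against the other 4 h ones, so these counts depend on the controls. Cytosolic assembly genes were higher with LMT for 5 of 8, with CIA2 at 1.96 and 0.20 (difference 1.76 ± 0.09, adjusted p = 1.61e-13). All 7 a-cell genes, 12 of 14 gluconeogenesis genes, 14 of 22 chaperone genes and 14 of 15 histidine and aromatic genes had the higher effect with LMT. Ergosterol genes had the lower effect with LMT for 20 of 24. ERG28 changed by -1.58 with LMT and 0.50 with the chelators (difference -2.08 ± 0.09), and OLE1 by -0.81 and 0.73.

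**Figure D4:**
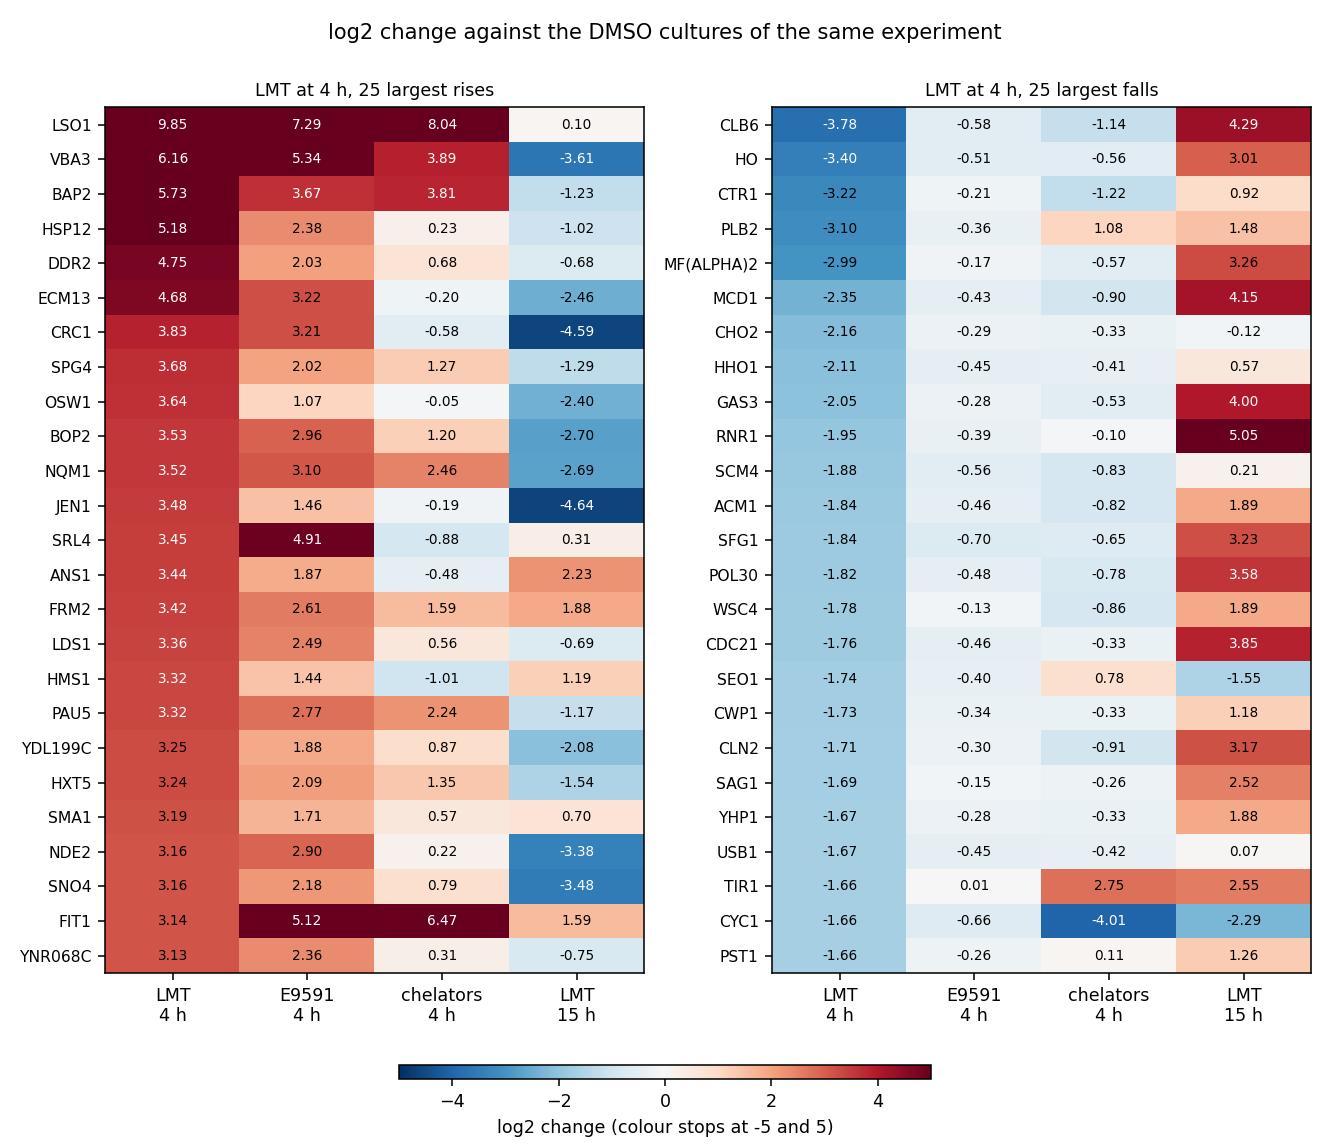
Log2 change against the DMSO cultures of the same experiment for the 25 largest rises (left) and 25 largest falls (right) with LMT at 4 h, with columns for LMT at 4 h, E9591 at 4 h, the mean of both chelators at 4 h and LMT at 15 h. The genes were chosen on the first column, where LSO1, OSW1, LDS1, HMS1 and SMA1 were below the floor in DMSO cultures, so the size of their change there was not measured. HSP12 is at 5.18, 2.38, 0.23 and -1.02 across the columns, and CLB6 at -3.78, -0.58, -1.14 and 4.29.

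After 15 h the LMT effect differed from that at 4 h for many genes. The cultures of that experiment were compared with DMSO cultures kept for the same 4.5 doublings, so the length of culture differs between the 4 h and 15 h values. Whether LMT and DMSO cultures were at the same growth stage at 15 h was not tested. A changed effect of LMT and a difference in growth stage cannot be told apart in these values. The effect at 15 h exceeded that at 4 h for 2067 genes (38.1%) and fell below it for 2426 (44.7%), with a median difference of -0.15. RNR1 changed by -1.95 at 4 h and 5.05 at 15 h, a difference of 7.0 ± 0.15 (adjusted p = 8.35e-22). CLB6 (-3.78 and 4.29), MCD1 (-2.35 and 4.15) and HO (-3.40 and 3.01) did likewise. HXT4 changed by -0.93 at 4 h and 5.43 at 15 h. MLS1, malate synthase, changed by 2.80 at 4 h and -7.50 at 15 h, a difference of -10.30 ± 0.61, and FBP1 by 1.73 and -7.38. LSO1 changed by 0.10 at 15 h, and VBA3 by -3.61. Of 30 replication and cohesin genes all had the higher effect at 15 h, as did 14 of 15 mitotic genes and all 4 alpha-cell genes, while all 14 gluconeogenesis genes and 31 of 34 autophagy genes had the lower one. The 127 cytosolic ribosomal protein genes had a median change of -0.09 at 4 h and 2.44 at 15 h.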

How the data were processed

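Values were deposited as linear intensity in 1 colour, for 10928 probe sets on each of 30 Affymetrix arrays. Each array has a 2% trimmed mean near 1000.4 to 1000.8, as scaling to a common target gives, and such scaling can move every gene on an array together. Neither software, probe summary nor background correction is given in the sources used here. A platform annotation table gave 5498 probe sets 1 S. cerevisiae gene each (5449 genes). Another 1746 were of another species, 1 had several genes and 3683 are unnamed here. Symbols were updated for 12 genes, and for 47 genes the brightest of several probe sets was kept. Of the genes tested, 113 have a probe set of a type that related genes can share.

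A gene was tested if above the floor on at least 3 arrays (5429 tested, 20 not). On log2(intensity + 1), 1 limma model (version 3.58.1, R 4.3.3) gave each of the groups its own mean across all 30 arrays, leaving 20 residual degrees of freedom and a prior of 3.16. P-values are two-sided with Benjamini-Hochberg adjustment, called under 0.05. They measure the spread between cultures of an experiment and leave out variation between experiments. The fit was tested on simulated data. A gene below the floor on all 3 arrays of a group is given as "at least N-fold", comparing the mean of the brighter group with whichever of floor and signal was higher per array.

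Named genes were the top 25 rises and top 25 falls, taken from called genes whose 3 LMT arrays lay outside the range of the DMSO arrays and whose higher mean was above the floor, 5 each way for differences of effects, and members of the gene lists. Members and lists were chosen with earlier results of these data known. A search of promoters for motifs was planned, and sequences were not used here. Replicate letters did not pair the cultures: same-letter deviations correlated at -0.05, 0.03 and -0.04. The number of arrays limits the precision.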

Additional observations from a re-analysis of the deposited data

Results flagged for a closer look

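The results here stand out because the effect of LMT at 4 h differed, by a test of the difference itself in the limma fit, from its effect at another time or from that of another compound. Differences are on the log2 scale as the first effect minus the second. Doses differed between compounds, and experiments had separate controls. Whether the LMT and DMSO cultures at 15 h were at the same growth stage was not tested.

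LMT minus E9591 at 4 h was called higher for 675 genes and lower for 734. On the higher side stood HSP12 (2.80), DDR2 (2.71), OSW1 (2.57), LSO1 (2.56) and NCA3 (2.43). On the lower side stood CLB6 (-3.20), CTR1 (-3.0), HO (-2.89), MF(ALPHA)2 (-2.83) and PLB2 (-2.74). OSW1 was below the floor in the DMSO cultures of LMT, and LSO1 in the DMSO cultures of both compounds, so their sizes rest on values without a measured level. CTR1 rests on a DMSO level that differed between experiments.

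LMT minus the chelators at 4 h was called higher for 1607 genes and lower for 1153. HSP12 (4.94), ECM13 (4.88), CRC1 (4.40), HMS1 (4.33) and SRL4 (4.33) led the higher side. HMS1 was below the floor in 4 groups (LMT's DMSO cultures, BIPR, PHEN and their DMSO cultures) and SRL4 in BIPR and PHEN. SET4 (-6.38), HES1 (-5.37), YMR317W (-5.06), DAN1 (-5.05) and PBI1 (-4.53) led the lower side, and SET4 was below the floor in LMT cultures.

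LMT at 15 h minus LMT at 4 h was called higher for 2067 genes and lower for 2426. CLB6 (8.06), RNR1 (7.0), MCD1 (6.51), HO (6.41) and HXT4 (6.36) led the higher side, and MLS1 (-10.3), VBA3 (-9.77), LSO1 (-9.75), FBP1 (-9.11) and CSM4 (-8.77) the lower side. CSM4 was below the floor in the DMSO cultures at 4 h and in LMT cultures at 15 h.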

How the results depend on the processing

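The 50 largest changes with LMT at 4 h kept their direction and their call in all 750 values recomputed under the alternatives. These genes were chosen as the largest called changes with groups that did not overlap, which favours that outcome. Their sizes could still move: CTR1 changed by -3.22, and by -0.93 against the other 4 h DMSO arrays. Counts over all genes moved as well. With arrays centred on their median, the genes lower with LMT came to 2168 (1366 as reported), and under quantile normalization to 1902. Centring moves all genes on an array by a common amount, whereas quantile normalization moves each gene by an amount that depends on its rank. With array weights, the genes with the higher effect of LMT than of E9591 came to 1097 (675 as reported), and the cause was not tested. With the other 4 h DMSO arrays as controls, 2572 genes were higher and 1763 lower with LMT. Of 1740 recomputed counts of list members, 1588 stayed within 1.5 times or were equal. The difference of OSW1, which was below the floor in DMSO cultures, from E9591 was lost with a pseudocount of 16 (0.72, adjusted p = 0.0782).

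Leaving out 1 array at a time gave 2022 to 2129 genes higher and 1251 to 1304 lower with LMT, 535 to 601 and 600 to 732 against E9591, 1423 to 1879 and 1036 to 1212 against the chelators, and 2016 to 2072 and 2344 to 2409 for 15 h against 4 h. With the replicate letter as a block, the counts were 2195 and 1358 with LMT, 611 and 699 against E9591, 1594 and 1149 against the chelators, and 2066 and 2430 for 15 h against 4 h.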

Other observations

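Genes of oxygen and metal supply not described above changed in both directions with LMT at 4 h. Over all genes tested 40.4% were called higher and 25.2% lower, and the copper counts below are near those shares. Of 14 hypoxic genes, 6 were higher and 7 were lower (median -0.38), with changes from -1.66 to 1.24. Against the other 4 h DMSO arrays 5 were higher and 7 lower (median -0.05). ROX1, the repressor of hypoxic genes, had intensities of 2937, 3013 and 3084 in LMT cultures, against 1256, 1491 and 1574 in DMSO cultures, a change of 1.07 ± 0.11, and NCE103, carbonic anhydrase, changed by 0.98 ± 0.11. AAC3 (-0.73) and HEM13 (-0.82), both targets of Rox1, were lower, but the hypoxic list split, and a link to ROX1 was not tested. Of 14 copper genes, 7 were higher and 4 lower, with a median of 0.08 that was -0.12 with centring. The metallothionein CRS5 (1.28), the Golgi copper pump CCC2 (1.21), the copper-sensing activators CUP2 (1.06) and MAC1 (0.82), and the vacuolar exporter CTR2 (0.67) rose, and the copper chaperone CCS1 (-0.70) fell.

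Phosphate genes moved singly rather than as a list. Of 13, 3 were higher and 3 lower (median 0.06, and -0.14 with centring), and 3 were higher and 9 lower against the other DMSO arrays (median -0.37). PHM8, a phosphatase acting on nucleotides and lysophosphatidic acid, had 728, 775 and 662 in LMT cultures, against 104, 118 and 100 in DMSO cultures, a change of 2.74 ± 0.15, against 0.83 with E9591 and 0.89 with the chelators. SPL2, an inhibitor in the low-affinity uptake branch, changed by 0.94 ± 0.11. The main transporter PHO84 was not called (0.10, adjusted p = 0.609), nor was the acid phosphatase PHO5 (0.15, adjusted p = 0.327).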
